A study of Mus musculus with 6 samples.

Results

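The wild-type transcriptome of the tibial plateau was described from 3 Affymetrix whole-genome mouse arrays, each holding the RNA of a single mouse, out of 6 arrays in the whole study. All arrays with the genotype label wild-type were taken, and means, spreads and ranks are over these 3 alone, although the deposited values had been normalised and filtered over all arrays of the study. The 3 mice were male C57Bl/6J animals of 6 weeks with no knockout allele and no treatment. The remaining 3 arrays came from mice labelled Frzb -/-, a deletion of the secreted frizzled-related protein that holds WNT ligands away from their receptors, and they are used only in the closing observations. The wild-type animals carry the numbers 6-1, 8-1 and 9-1 in the labels. The piece taken was the top of the tibia down into the growth plate, so that joint cartilage, the bone under it and the marrow inside that bone came together. The question was which tissues and cell types such a piece holds, and how far the pieces of 3 mice differ.

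Articular cartilage is made by chondrocytes, which lay down a matrix of type II collagen fibrils and aggrecan and contain no vessels. Below it, osteoblasts build bone on a type I collagen matrix, osteocytes live inside that matrix, and osteoclasts dissolve it. The marrow between the trabeculae makes red cells, neutrophils, platelets and B cells, and the growth plate beneath ends in hypertrophic chondrocytes, which mineralise their matrix. A piece that spans all of these is a mixture. In such bulk RNA, fewer cells of a type and less RNA per cell cannot be told apart.

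The deposited table gave an RMA expression value on the log2 scale for 30618 probe sets, of which 25090 were annotated to 1 gene, 677 to several genes and 4851 to no gene listed here. Together the single-gene probe sets covered 13817 genes. A gene was represented by its brightest probe set, and its level was placed as a percentile among all probe sets by the mean of the 3 mice. A percentile places a probe set and is not an amount of RNA, since probe sets bind with different strength: over the 6457 genes with more than 1 probe set, the median span between the brightest and the dimmest probe set of the same gene was 2.11 on the log2 scale, or 30.4 percentile points. To set a level for genes that should be silent, 20 genes of liver, brain, eye, gut, kidney, skin and other distant tissues were read in the same arrays. Of the 64 genes written for that comparator, these 20 had a probe set, their median percentile was 14.2, and their 90th percentile lay at a log2 value of 7.24, percentile 47.1. That value is the comparator level. Probe sets called absent had been removed before deposit, and some others had no gene listed or several. These 20 are therefore the genes of the 64 with a single-gene probe set still in the table. Counts of list members are likewise over such genes. Of all probe sets, 52.9% were above the level, and of all 13817 genes by their brightest probe set, 68.6%, so passing it says little by itself. The brightest 10.0% of all probe sets, called the top decile here, began at a log2 value of 10.24 and held 14.3% of the genes. Counts over a list are to be read against the shares of the genes. Percentiles of genes are raised in the same way: Sfrp2, at percentile 49.4 when ranked among genes, was at 64.0 among all probe sets. A list median near that value is therefore the level of a middle gene.

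Arrays of the 3 mice were close to each other. The array medians were 7.40, 7.44 and 7.34 for 6-1, 8-1 and 9-1. Over all probe sets, Pearson's r between pairs of arrays ran from 0.987 to 0.993, as a description across probe sets that are not independent. The median SD between mice was 0.136 on the log2 scale, the 95th percentile of the SD was 0.405, and 794 probe sets had an SD above 0.5. No test was made, because the arrays form 1 group and there is no contrast between groups. Nothing in the labels says that the arrays were run together or apart.

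The brightest signals came from blood, cartilage and bone. The 3 brightest probe sets of all were annotated to several adult globin genes at once, with means from 14.78 to 14.95 for alpha and beta chains. The next was Col2a1, the type II collagen of cartilage, at 14.56, 14.74 and 14.70 (mean 14.67 ± 0.096 SD, n = 3). It was followed by Col1a2 (14.60 ± 0.030), Sparc (14.58 ± 0.050) and Col1a1 (14.56 ± 0.030), which encode both chains of type I collagen and osteonectin, a bone matrix protein. These values vary by no more than 1.14-fold between mice. The next probe set, at a mean of 14.46, had no gene listed. The ranks that follow are among genes with a single-gene probe set and skip such probe sets. The fifth gene was S100a9 (14.40 ± 0.199), which with S100a8 forms the calprotectin of neutrophils. The eighth was Acta1 (14.31 ± 0.200), the actin of skeletal muscle fibres. Among the 20 brightest genes were also Actb and the translation factor Eef1a1, the growth-related Tpt1, the thymosins Tmsb10 and Tmsb4x, the lysozyme Lyz1, Ngp, Col3a1, the muscle genes Tnnc2 and Myl1, and the ribosomal proteins Rps29, Rps28 and Rpl37a. The top 1% of probe sets represented 152 genes. Of these, 81 belonged to a gene list used here or to the ribosomal proteins: 32 were ribosomal proteins, 14 skeletal muscle genes, 9 cartilage matrix genes, 8 neutrophil genes, 4 osteoblast genes and 3 osteoclast genes.

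Promoters are shown for 4 genes that stand for the patterns described further on: Acta1 and Ckm for the bright muscle genes, S100a9 for the neutrophil genes, and Epx for the eosinophil genes that varied most between mice. Each is the RefSeq window on build GRCm38.p6 from 250 bases before to 50 bases after the annotated gene start, written 5′ to 3′ on the strand of the gene. Capitals mark the letters TATAA, the core of the TATA box.
Acta1, chr8:123894726-123895025, minus strand: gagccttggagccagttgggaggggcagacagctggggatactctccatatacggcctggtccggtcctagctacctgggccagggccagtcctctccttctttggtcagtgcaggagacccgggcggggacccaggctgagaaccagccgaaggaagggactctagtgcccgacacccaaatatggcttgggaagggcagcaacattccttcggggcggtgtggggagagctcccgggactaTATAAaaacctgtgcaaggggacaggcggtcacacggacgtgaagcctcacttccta
Ckm, chr7:19410844-19411143, plus strand: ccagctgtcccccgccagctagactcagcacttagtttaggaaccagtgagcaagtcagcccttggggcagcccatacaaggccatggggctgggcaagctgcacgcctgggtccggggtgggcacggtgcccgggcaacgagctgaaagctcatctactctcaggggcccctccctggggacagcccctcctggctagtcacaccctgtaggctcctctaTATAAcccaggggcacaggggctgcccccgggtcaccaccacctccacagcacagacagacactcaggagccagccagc
S100a9, chr3:90695672-90695971, minus strand: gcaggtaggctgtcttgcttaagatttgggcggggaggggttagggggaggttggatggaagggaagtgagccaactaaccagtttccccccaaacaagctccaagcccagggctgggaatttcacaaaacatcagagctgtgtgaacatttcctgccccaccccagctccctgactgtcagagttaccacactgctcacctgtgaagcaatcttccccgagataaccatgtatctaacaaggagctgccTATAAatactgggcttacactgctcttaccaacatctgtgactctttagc
Epx, chr11:87875487-87875786, minus strand: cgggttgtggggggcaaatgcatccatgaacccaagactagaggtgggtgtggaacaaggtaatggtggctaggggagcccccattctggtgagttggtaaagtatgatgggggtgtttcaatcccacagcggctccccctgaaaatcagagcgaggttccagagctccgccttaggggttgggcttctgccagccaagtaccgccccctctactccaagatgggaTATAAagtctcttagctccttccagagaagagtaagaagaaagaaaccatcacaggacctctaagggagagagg
Each of these windows held TATAA on the gene's own strand and no match on the other, where it would read TTATA. The first letter lay at -29 in Ckm, at -24 in Epx, at -7 in Acta1 and at 1 in S100a9, counted from the annotated start, so the annotated starts sit at different distances from the motif. Searched on both strands, TATAA was in 24.9% of the 32851 promoter windows and in at least 1 window of 28.0% of the 27025 genes that have one. Among list genes with a window, it was in 8 of 13 skeletal muscle genes, 10 of 18 neutrophil genes, 7 of 14 erythroid genes, 6 of 12 housekeeping genes and 4 of 17 cartilage matrix genes. A match in these letters is a description of the window and not a measured binding site.

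Cartilage was represented by nearly its whole matrix. All 22 cartilage matrix genes with a probe set were above the comparator level, 19 were in the top decile, and their median percentile was 98.2. Aggrecan (Acan), the main proteoglycan, read 12.77, 13.14 and 13.09. Comp (13.74 ± 0.207), Col11a1 (13.59 ± 0.146) and Col9a1 (13.39 ± 0.207), which organise the type II fibrils, were all above percentile 99. The link protein Hapln1 was at percentile 98.5 and Matn3 at 97.8. The dimmest member was Matn4 at 7.64, percentile 54.3, and Matn1, a matrilin of cartilage away from the joint surface, was at 9.16 and percentile 78.7. The list of 9 chondrocyte transcription factors and signals had a median percentile of 62.3, with 6 above the comparator level, close to the share of all genes. Sox9, the master factor of chondrocytes, read 8.78, 9.65 and 9.25, percentile 79.6, and its partners Sox6 and Sox5 were at 88.2 and 62.3. Fgfr3, a receptor that slows chondrocyte growth, was the brightest at 94.6. Gdf5, a factor of the forming joint (percentile 32.9), and the BMP receptor Bmpr1b (13.3) were below the comparator level.

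Zones of the cartilage could be followed through a few genes. Prg4, the lubricin of the joint surface, read 13.26, 13.83 and 13.42 and sat at percentile 99.6. All 9 genes of the superficial zone and synovial lining were above the comparator level, though only Prg4 and Clu, an extracellular chaperone, were in the top decile. In the same list, Has1, which makes hyaluronan, was the dimmest at percentile 52.7. At the other end of the tissue, 12 of 13 hypertrophic growth plate genes were above the comparator level and 7 were in the top decile. Col10a1, the collagen of hypertrophic chondrocytes, read 11.50, 11.74 and 10.93, a range of 1.76-fold. Mmp13, the collagenase of the same cells and of osteoblasts, was among the most even genes at 12.98, 12.97 and 12.96. Pth1r was at percentile 97.9. The hedgehog ligand Ihh was only just above the comparator level at 7.49, percentile 51.7, and its target Gli1 was below it at 40.0.

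Bone cells of all 3 kinds were present by their defining genes. For osteoblasts, 9 of 10 genes were above the comparator level and 6 in the top decile. Ibsp, the bone sialoprotein, read 13.08, 13.32 and 13.08, while Dlx6 was the dimmest at percentile 19.3. Osteocyte genes were led by Dmp1 (12.55 ± 0.085), which controls mineralisation. Sost, the WNT inhibitor sclerostin that osteocytes secrete, read 9.51, 9.70 and 8.90. Mepe was at 80.5 and Phex at 89.1, and Fgf23, the phosphate hormone, was at percentile 5.98. The osteoclast list had 14 of 16 genes above the comparator level. Acp5, the tartrate-resistant phosphatase, was at 13.54 ± 0.112, Mmp9 at 12.96 ± 0.076 and cathepsin K (Ctsk), which degrades bone collagen, at 12.61 ± 0.098. Car2, which acidifies the resorption space and is also found in red cells, was at 13.52. The fusion gene Ocstamp was at percentile 62.1, and the calcitonin receptor Calcr at 13.01.

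**Figure D1:**
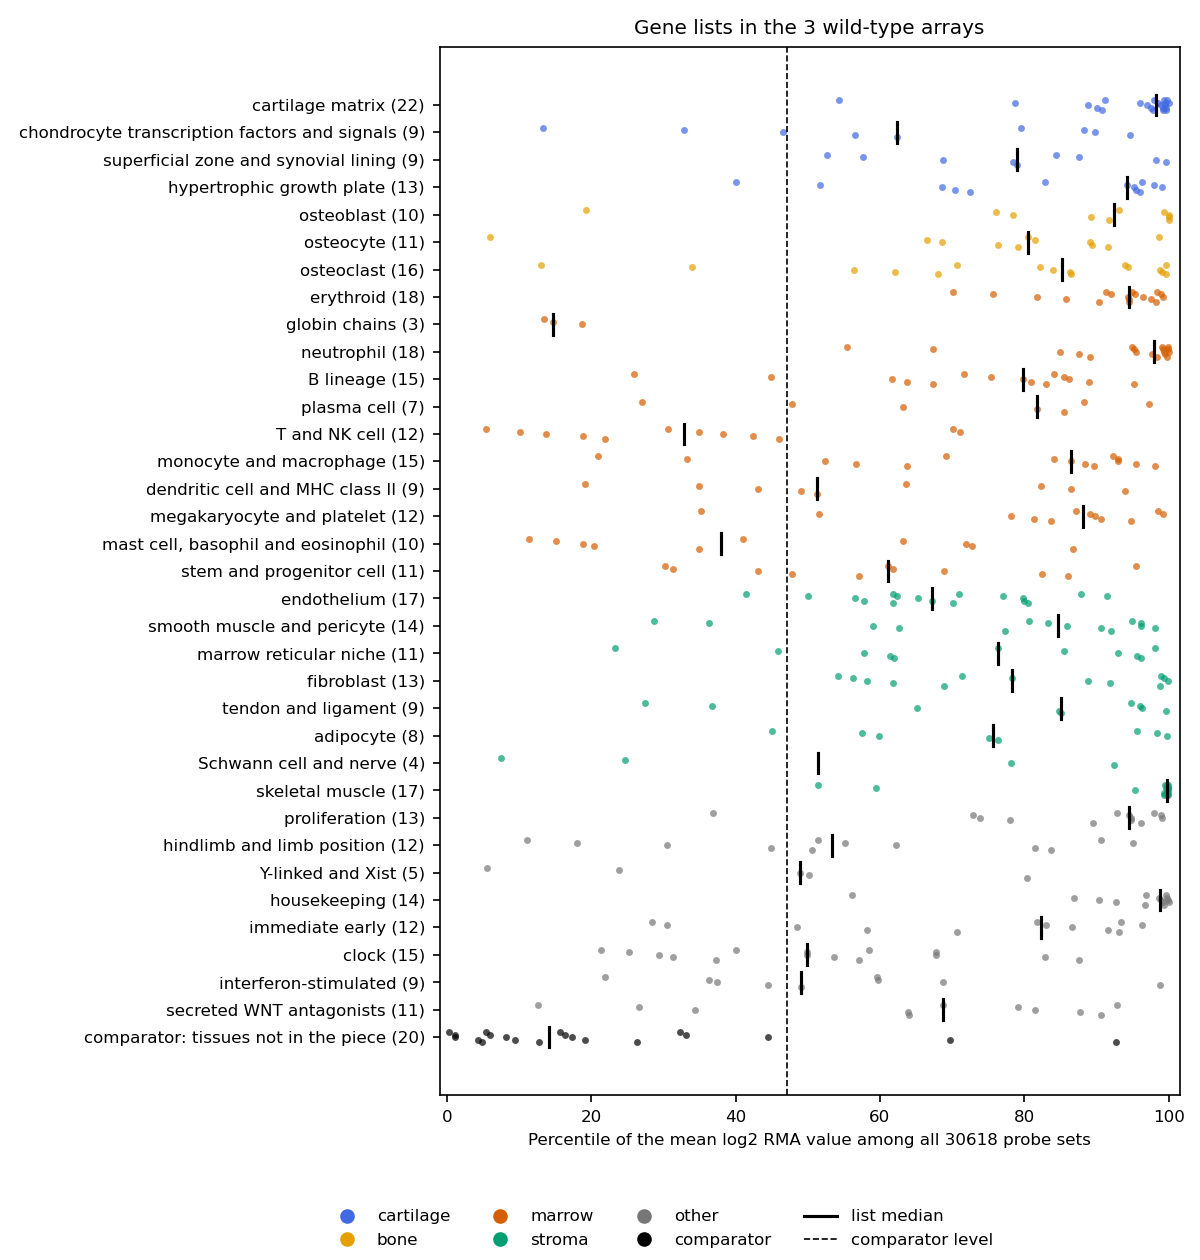
Percentile of the mean RMA value (x axis) of each gene in 35 lists (y axis, number of genes with a probe set in brackets), coloured by class. The black bar is the list median and the dashed line the comparator level at 47.1. Skeletal muscle (median 99.7), housekeeping (98.7), cartilage matrix (98.2) and neutrophil genes (98.0) lie at the right edge, whereas T and NK cell genes (32.8) and the comparator (14.2) lie left of the line.

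Neutrophil and red cell genes had the highest median percentiles among the marrow lists. All 18 neutrophil genes were above the comparator level and 13 in the top decile, with a median percentile of 98.0. After S100a9 and S100a8 (14.30 ± 0.155) came the granule proteins Ngp (14.26 ± 0.240), Camp (13.91 ± 0.196) and Ltf (13.39 ± 0.418). The list spans the stages of granule formation: Mpo (13.18), Elane (12.33) and Prtn3 (12.00) belong to the primary granules of promyelocytes, and Ltf, Camp and Lcn2 to the later ones. Gfi1, a transcription factor of the lineage, was the dimmest at percentile 55.4.

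Erythroid genes were all 18 above the comparator level, and 14 were in the top decile. Slc4a1, the anion exchanger of the red cell membrane, was at 13.12 ± 0.237, and Alas2, which starts haem synthesis in red cell precursors, at 12.33 ± 0.262. Klf1 (percentile 94.9), Gata1 (90.3) and Epor (75.7) drive the lineage. Globin genes could be read only in part. Another probe set shared by both adult alpha genes was at 13.42. Those annotated to a single globin gene were dim, with Hba-a2 at percentile 14.7, Hbb-b2 at 13.5 and the embryonic chain Hba-x at 18.8. So the alpha and beta signals cannot be assigned to a single gene copy. Megakaryocyte and platelet genes had a median percentile of 88.1, with 11 of 12 above the comparator level. The platelet chemokines Ppbp (percentile 99.2) and Pf4 (98.5) were the brightest, Itga2b, the platelet integrin, was at percentile 89.1, and Gp6 was the dimmest at 35.2.

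Lymphoid cells split by lineage. Of 15 B lineage genes, 13 were above the comparator level, among them Cd79a (percentile 81.0) and Cd79b (86.2) of the B cell receptor and Vpreb1 (83.0) and Igll1 (67.3) of the surrogate light chain of B cell precursors. Rag2, part of the recombinase, was the dimmest at 25.9. Plasma cell genes were above the level in 6 of 7 cases, with Jchain, which links antibody units, at percentile 88.2 and Xbp1, which is also broad in secretory cells, at 97.3. Of 12 T and NK cell genes, by contrast, only 2 were above the comparator level: Nkg7 (71.1), found in cytotoxic granules, and Il7r (70.1), a cytokine receptor that B cell precursors use as well. Cd3d read 6.36, 6.47 and 6.75, Cd3g was at percentile 10.2 and Cd8a at 5.36. These T cell receptor and co-receptor genes were below the comparator level in every mouse.

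Myeloid cells other than neutrophils were intermediate. Among 15 monocyte and macrophage genes, 13 were above the comparator level. Csf1r, the receptor that macrophages and osteoclasts depend on, was at 12.23 ± 0.027. Mpeg1 was at percentile 95.4, Cd68 at 86.4 and Adgre1, the F4/80 antigen, at 63.7, while Siglec1 was at 20.9. Dendritic cell and MHC class II genes had 6 of 9 above the level, again close to the share of all genes, led by H2-Aa (94.0), H2-Eb1 (86.5) and H2-Ab1 (82.3), which B cells and macrophages also express. The dimmest was Ciita, the activator of those genes, at 19.1. Stem and progenitor genes had a median percentile of 61.2, with 8 of 11 above the level, near the share of all genes. Myb, active in early blood cells, was at 95.5, Cd34 at 86.0, Kit at 57.1 and Meis1 at 30.2. Of 10 mast cell, basophil and eosinophil genes, 4 were above the level. Mast cell proteases were among the 6 that were not, with Cpa3 at 41.0 and Mcpt4 at 15.1, whereas Prg2, Epx, Hdc and the basophil protease Mcpt8 (72.0) were above it.

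Stroma and vessels were readable at moderate levels. Of 17 endothelial genes, 16 were above the comparator level but only Plvap, of fenestrated endothelium, was in the top decile at 91.5. Cdh5 (62.4), Pecam1 (67.2), Emcn (71.0) and Kdr (80.0) were near the list's median percentile of 67.2, and Sox17 was at 41.5. That median is close to the level of a middle gene, at 53.4 when ranked among genes. Smooth muscle and pericyte genes had 12 of 14 above the level, with Rgs5, a pericyte gene, at 12.18, Acta2 at 11.40, Tagln at percentile 86.0, Myh11 at 62.7 and Cnn1 at 28.8. Cxcl12, the marrow chemokine that keeps blood precursors in place, was at 11.42, with Lpl at 12.22, Kitl at percentile 85.5, Lepr at 57.8, Ebf3 at 61.4 and Il7 at 23.3. Fibroblast genes were all 13 above the level, from Col3a1 (14.05 ± 0.119) and Col6a3 (98.8) to Dpt (91.9), Pdgfra (88.9), Pi16 (71.4) and Fbln1 (54.1). In tendon and ligament, Fmod, which cartilage also makes, was at 99.6, Thbs4 at 96.0 and Tnmd, a marker of tendon cells, at 85.1, whereas the tendon factors Scx (27.4) and Mkx (36.7) were below the comparator level. Adipocyte genes were above it in 7 of 8 cases. Car3, which muscle also holds, was at 13.77, Fabp4 at 12.35, Adipoq at 11.26, Retn at percentile 75.03, Cidec at 57.6, and Pparg the dimmest at 45.1. Only 4 of 10 Schwann cell genes had a probe set, and Cdh19 (7.53) and Ngfr (24.6) were below the level while Pmp22 (92.4) and Mbp (78.1), both also made outside nerve, were above.

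Skeletal muscle stood at the very top, although the labels and the description of the dissection name no muscle. All 17 muscle genes with a probe set were above the comparator level, 15 were in the top decile and 14 above percentile 99. Ckm, the muscle creatine kinase, read 14.39, 13.91 and 13.74. The fast myosin heavy chains Myh4 (13.81 ± 0.231) and Myh1 (13.81 ± 0.153), the fast troponins Tnnt3 (13.75 ± 0.392) and Tnnc2 (14.17 ± 0.169), and the calcium pump Atp2a1 (13.93 ± 0.304) were at similar percentiles. Some genes of slow fibres were at lower percentiles. Tnnt1, a slow troponin, was at percentile 59.5. A list of 11 slow and cardiac muscle genes was written after the values had been seen. Its median percentile was 67.6, with 9 genes above the comparator level and 3 in the top decile. Myl3 was at 67.6, Myl2 at 61.8, Tnnc1 at 44.2 and Tnni1, the dimmest, at 29.5, while Actc1 was the brightest at 96.9. Cav3, the dimmest of the muscle list, was at percentile 51.4. The source of this muscle signal was not tested.

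Other groups that do not mark a single cell type filled out the picture. Proliferation genes had 12 of 13 members above the comparator level and a median percentile of 94.5, with Mki67 at 12.84 ± 0.194, Pcna at 12.71, Top2a at 11.04 and Cdk1 at 10.18. The dimmest was Tyms at percentile 36.9. Of the secreted WNT antagonists, 8 of 11 were above it, near the share of all genes: Wif1 led at percentile 92.9, and Frzb itself read 10.02, 10.79 and 10.16 (10.32 ± 0.414, percentile 90.6). Sfrp4, Dkk1 and Dkk3 were at 87.6, 79.2 and 68.7, while Sfrp1 (34.3), Dkk2 (26.6) and Sostdc1 (12.6) were below the comparator level. Of 12 hindlimb and limb position genes, 8 were above the comparator level, again near the share of all genes. Pitx1 was at 51.4 and Tbx4 at 30.4, while the stromal Islr (95.1), Shox2, a factor of the proximal limb (90.6), Hoxc10 (83.7) and Hoxa9 (81.4) were higher. None of 17 Hox genes reached the top decile. Among collagens, 29 of 38 chains were above the comparator level and 21 in the top decile, from Col2a1 down to Col19a1 at percentile 4.0. All 9 S100 genes were above the level and 8 in the top decile.

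The sex given in the labels was checked through genes of the sex chromosomes. Xist, transcribed from the inactive X of females, was at percentile 23.9. Among Y-linked genes, Eif2s3y was at 80.4, Uty at 50.2 and Kdm5d at 48.9, all above the comparator level by their means, but Usp9y was at 5.58. Only Eif2s3y was well above the level: Kdm5d read 7.17 in mouse 6-1, below it, and Uty 7.24 in 9-1, even with it. The dimmest probe sets of Eif2s3y, Uty and Kdm5d were at percentiles 0.622, 14.5 and 15.6. Housekeeping genes had a median percentile of 98.7, with Actb brightest and Tbp dimmest at 56.1. Hprt and B2m were at 92.6 and 99.2. Interferon-stimulated genes were above the level in 5 of 9 cases, and Rsad2 stood apart at percentile 98.7, with Irf7 at 59.7, Ifit3 at 37.4, Ifit1 at 36.3 and Mx1 at 22.0. Clock genes had a median percentile of 49.9, led by Nr1d2 (87.6), with Arntl at 67.7, Dbp at 58.4, Per1 at 53.6, Per2 at 29.4 and Bhlhe41 at 21.3. In the comparator itself, 2 of 20 genes were above the comparator level. Cyp2e1, a liver enzyme that fat also makes, read 11.33, 10.81 and 9.73, percentile 92.6, and the elastase Cela1 was at 69.7.

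The order of the 3 mice differed from one gene group to another. As background, 34.7% of all genes were highest in mouse 6-1, 30.7% in 8-1 and 34.6% in 9-1, and 37.8% were lowest in 6-1, 24.1% in 8-1 and 38.2% in 9-1. Genes of a list are not replicates of a mouse, so these counts carry no test, and each mouse is a single piece of tissue. Over all probe sets the median deviation from the mean of the mice was -0.01, 0.02 and -0.01.

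Cartilage genes were highest in mouse 8-1. This held for 21 of 22 cartilage matrix genes, and 20 of 22 were lowest in 6-1, with median deviations of -0.24, 0.22 and 0.02 in 6-1, 8-1 and 9-1 on the log2 scale. Matn3 ranged most, at 11.53, 12.50 and 12.10, or 1.96-fold. Col2a1 ranged by only 1.14-fold. Regulators moved likewise: 8 of 9 chondrocyte factors and signals, among them Sox9, were highest in 8-1. So were 10 of 13 hypertrophic genes, 7 of 10 osteoblast genes and 9 of 11 osteocyte genes, though the osteoblast genes ranged by a median of only 1.14-fold. Osteoclast genes had another order, with 8, 4 and 4 of 16 highest in 6-1, 8-1 and 9-1 and 9 lowest in 9-1.

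Marrow genes followed a different order that depended on the lineage. All 18 neutrophil genes were lowest in mouse 6-1, with a median deviation of -0.28. Mmp8, the neutrophil collagenase, read 10.46, 11.59 and 11.47, a range of 2.20-fold, and Olfm4, of a subset of neutrophils, 7.76, 9.02 and 8.47. Also lowest in 6-1 were 13 of 15 B lineage genes, 12 of 15 monocyte and macrophage genes and 8 of 12 T and NK cell genes. Erythroid genes went otherwise, as all 18 were lowest in 8-1, the mouse with the highest cartilage genes, and 14 were highest in 9-1. Median deviations of the erythroid list were 0.07, -0.23 and 0.20. Platelet genes followed the red cell genes, with 11 of 12 lowest in 8-1 and 11 highest in 9-1.

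Within the B lineage, 3 genes of the pro-B and pre-B stage stood out in mouse 9-1. Vpreb1 read 8.95, 9.17 and 10.37, Igll1 7.88, 8.17 and 9.19, and Dntt, which adds bases at antibody gene joints, 7.49, 7.96 and 8.76. Each was highest in 9-1, with ranges of 2.67-, 2.47- and 2.42-fold. The mature B cell gene Ms4a1 (9.08, 9.56 and 9.10) was highest in 8-1 instead, and Pax5, a factor of the whole lineage, read 7.19, 7.09 and 7.07. Igll1 and Dntt were picked here after their values had been seen.

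**Figure D2:**
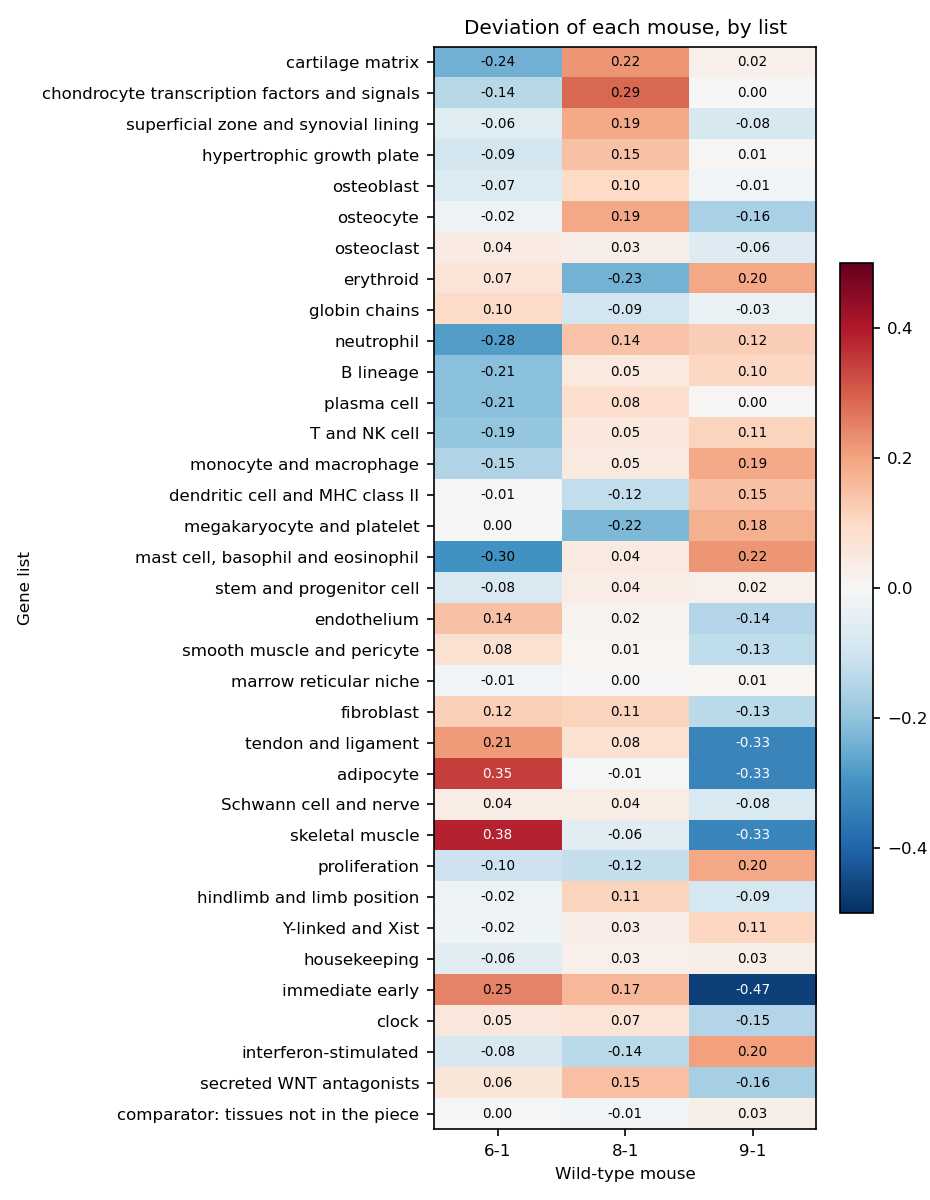
Median log2 deviation of each wild-type mouse (x axis) from the mean of the 3 mice, over the genes of each list (y axis), as colour and number. Mouse 6-1 is high for skeletal muscle (0.38) and adipocytes (0.35) and low for neutrophils (-0.28), mouse 8-1 is high for cartilage matrix (0.22) and low for the erythroid list (-0.23), and mouse 9-1 is lowest for immediate early genes (-0.47).

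Muscle and fat shared the opposite order. All 17 skeletal muscle genes were highest in mouse 6-1 and 16 were lowest in 9-1, with a median range of 1.64-fold. Myoglobin (Mb) read 14.01, 13.65 and 12.85, a range of 2.23-fold. The slow and cardiac muscle genes, a list written after the values had been seen, ranged by a median of 3.07-fold. All 8 adipocyte genes were highest in 6-1 and lowest in 9-1 as well. Adipoq, the hormone adiponectin, read 11.66, 11.19 and 10.92, and Cidec, a lipid droplet protein, 8.48, 7.86 and 7.16, a range of 2.49-fold. Cyp2e1 of the comparator moved in the same order and ranged by 3.04-fold. The tendon list was mixed, with 5 of 9 genes highest in 6-1 and 7 lowest in 9-1. Tnmd (10.36, 9.45 and 9.21) and Kera (9.13, 8.07 and 7.62), picked for their ranges of 2.22- and 2.86-fold, had the order of the muscle genes, whereas Fmod (13.33, 13.64 and 13.71) had the opposite one. Of 17 endothelial genes, 13 were highest in 6-1 and 14 lowest in 9-1, and 11 of 13 fibroblast genes were lowest in 9-1.

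Mouse 9-1 differed also in genes that respond within minutes and in genes of dividing cells. All 12 immediate early genes were lowest in 9-1. Fos, the transcription factor that stimuli induce fastest, read 11.19, 11.06 and 9.85, a range of 2.52-fold, and Fosb 6.59, 6.78 and 5.37. Egr1 read 11.67, 11.72 and 10.97, and Jun 8.98, 8.71 and 8.16. In Fos, Fosb, Egr1 and Jun, mice 6-1 and 8-1 were thus closer to each other than either was to 9-1. This did not hold for Egr2, which read 6.09, 6.22 and 5.99. In the clock list, 11 of 15 genes were lowest in 9-1, yet the median range was only 1.22-fold. By contrast, all 13 proliferation genes and all 9 interferon-stimulated genes were highest in 9-1. Mki67 read 12.74, 12.72 and 13.07. Ifit1 read 6.43, 6.36 and 7.07, below the comparator level in every mouse, and the bright Rsad2 12.59, 12.32 and 12.81. The median range was 1.27-fold in the proliferation list and 1.27-fold in the interferon-stimulated list. Of the 14 housekeeping genes, 3, 6 and 5 were highest and 9, 2 and 3 lowest in 6-1, 8-1 and 9-1, with a median range of 1.19-fold.

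**Figure D3:**
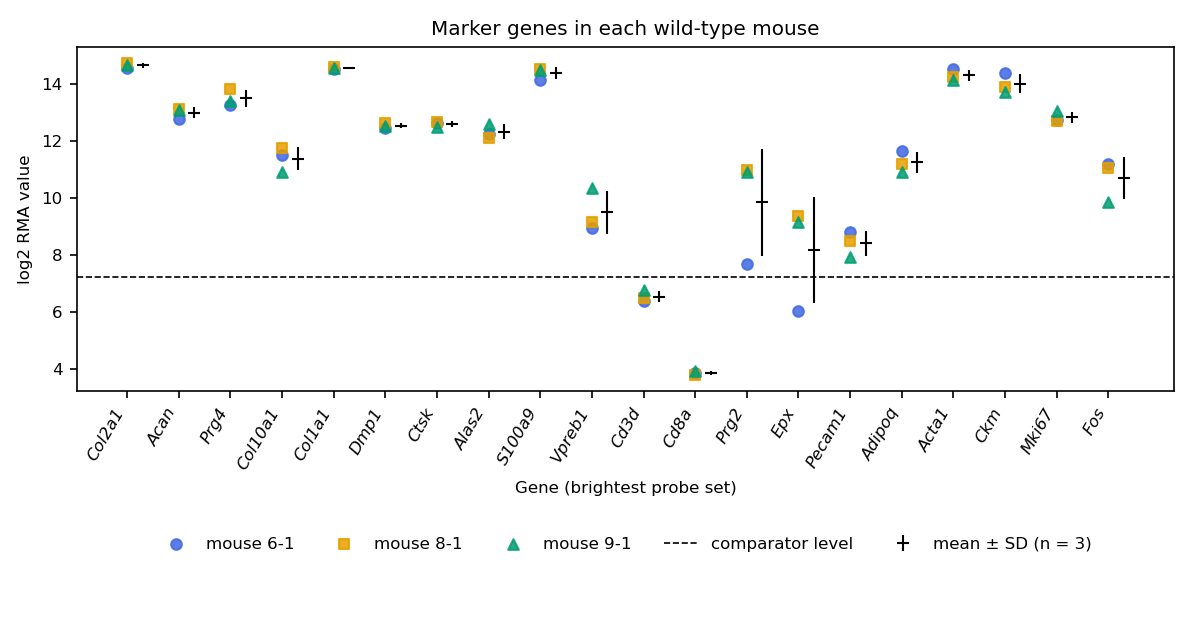
RMA expression value on the log2 scale (y axis) of 20 marker genes (x axis) in each wild-type mouse (symbols), with the mean ± SD of the 3 mice in black and the comparator level of 7.24 as a dashed line. Col2a1 and Col1a1 coincide in the 3 mice, Prg2 and Epx are low in mouse 6-1 alone, and Fos is low in mouse 9-1.

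The largest spread of any annotated gene was that of 2 eosinophil granule genes. Prg2, the major basic protein, read 7.67, 10.97 and 10.91, a range of 9.84-fold. Epx, the eosinophil peroxidase, read 6.01, 9.35 and 9.15, a range of 10.1-fold. Both were low in mouse 6-1 and close together in 8-1 and 9-1, and in 6-1 Epx was below the comparator level while Prg2 was just above it. The SDs of 1.89 and 1.87 were far above the 95th percentile of 0.405 over all probe sets. Of the 5 most variable probe sets on the arrays, the other 3 had no gene listed and the same order of mice in that 6-1 was low: they read 5.77, 9.56 and 9.90, then 9.64, 12.08 and 12.29, and 8.78, 11.29 and 11.33. An eosinophil list was then written with these values known. Of its 12 genes 5 had a probe set annotated to that gene alone. The rest may still have probe sets among those with no gene listed here. All 5 were lowest in 6-1: Prg2, Epx, the sialic acid receptor Siglecf (4.95, 5.87 and 5.84), the lipoxygenase Alox15 (4.96, 5.82 and 6.51), and the widely expressed tetraspanin Cd9 (11.53, 11.86 and 11.58). Siglecf and Alox15 were below the comparator level in every mouse. Of the 10 genes of the mast cell, basophil and eosinophil list, 7 were lowest in 6-1, Prg2 and Epx among them. The mast cell genes Cpa3 (6.71, 6.80 and 7.15) and Fcer1a (4.25, 4.83 and 4.71) were also lowest in 6-1, while Mcpt4 read 5.06, 4.94 and 4.99, all below the comparator level.

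The next most variable genes were mostly those of muscle and the heart. Among the 15 genes with the largest SD and a mean above the median of all probe sets, the other 13 were highest in mouse 6-1: Mybph, Myl3, Adamts8, Abra, Lmod2, Actc1, Ankrd1, Hspb7, Ppp1r27, Synm, Prkag3, Stac3 and Fabp3. Except for the protease Adamts8, they are known mainly from striated muscle. Mybph, a myosin-binding protein, read 9.20, 7.18 and 7.02, a range of 4.53-fold. Myl3, the light chain of slow and ventricular myosin, read 9.48, 8.47 and 7.32. In contrast, Actc1, the cardiac and fetal actin, was lowest in 8-1, at 12.82, 10.89 and 11.34. Of the 100 most variable genes with a mean above that median, 87 were highest in 6-1 and lowest in 9-1, an order held by 23.9% of all genes. The set was chosen by its spread. Below that median level, the natriuretic peptide receptor Npr3 (7.93, 6.79 and 5.35) and Mettl11b (7.15, 5.82 and 4.76) also had this order.

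**Figure D4:**
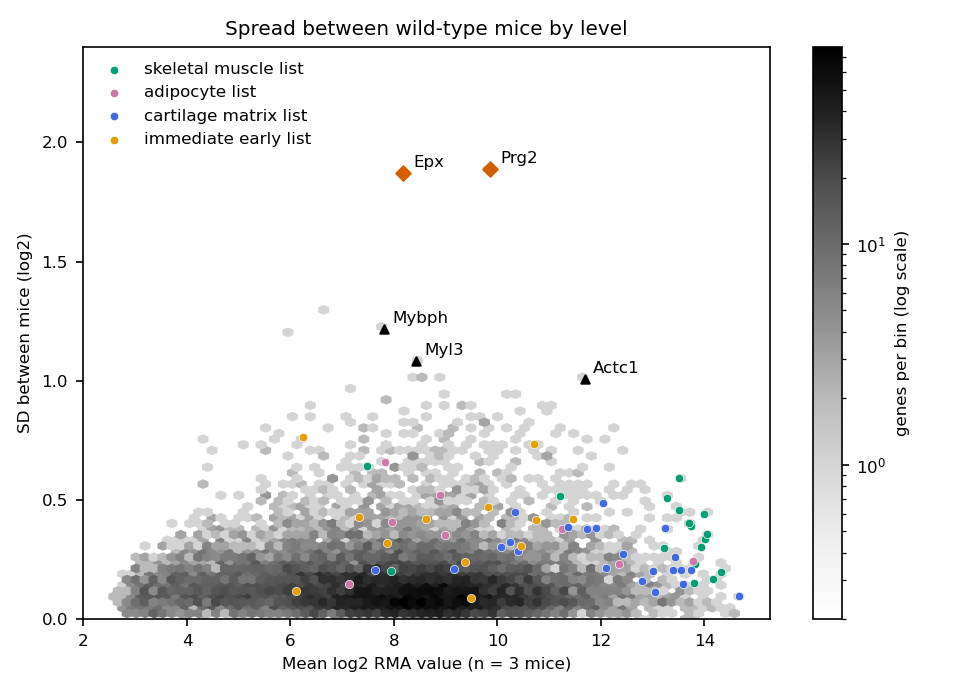
SD between the 3 wild-type mice (y axis) against the mean RMA value on the log2 scale (x axis) for all 13817 genes (grey bins, darker with more genes), with members of 4 lists in colour and the most variable named genes marked. Prg2 and Epx lie apart from all other genes with SDs of 1.89 and 1.87, and the muscle genes Mybph, Myl3 and Actc1 are marked beneath them.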

How the data were processed

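RNA from a dissected tibial plateau was hybridised to Affymetrix whole-genome mouse arrays, with 1 mouse per array. Per the labels and methods, the authors computed the deposited log2 values by RMA (affy version 1.20.0), which corrects the background, normalises by quantiles over the arrays and summarises the probes of a set, and they removed control probe sets and those called absent. Quantile normalisation gives the arrays a common distribution, so values are relative within an array. Arrays have no read depth, and their number (3) limits the precision. Means, SDs (n = 3) and mid-rank percentiles over all probe sets were computed with Python 3.11.15, numpy 2.4.6 and pandas 2.3.3, after tests on simulated data. Genes were named from the platform annotation; a gene took its brightest single-gene probe set. Of 516 list entries, 413 had a probe set.

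Genes named were the 20 brightest, the first 4 of each list with its brightest and dimmest member, the 15 with the largest SD above the median level, and the Y-linked genes, Xist, globins, Tbx4, Pitx1 and Frzb; further members of the lists were named for their function or after their values were seen. The members and lists were chosen with earlier results of these data known. Each array is a separate mouse, so the spread includes animal and dissection. The alternatives were the dimmest or median probe set, ranking among genes, other comparator levels and leaving out each mouse. The promoters were taken from RefSeq.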

Additional observations from a re-analysis of the deposited data

How the results depend on the processing

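No paired analysis was possible because the arrays form 1 group and no result comes from a test between groups. Leaving out each mouse in turn, the median percentile of the B lineage ran from 77.0 to 81.1 and the median SD between mice from 0.100 to 0.128. With the dimmest probe set of each gene, the median percentile was 95.9 for cartilage matrix, 77.2 for osteoblasts, 82.7 for osteoclasts, 91.5 for erythroid, 70.3 for B lineage, 61.7 for endothelium and 99.4 for skeletal muscle genes. With the median over the probe sets, it was 97.4 for cartilage matrix, 84.0 for osteoclasts, 93.2 for erythroid and 71.8 for B lineage genes. Ranked among genes rather than probe sets, it was 89.3 for osteoblasts, 78.7 for osteoclasts, 92.5 for erythroid, 70.8 for B lineage, 20.8 for T and NK cell, 53.4 for endothelial and 9.19 for comparator genes. Leaving out Cyp2e1, chosen after its value was seen, put the comparator at 12.7. With the highest comparator gene as the level, 2252 probe sets were above it in place of 16204. Of 205 named genes, 64 moved by more than their SD when the median over their probe sets was used. None did when a mouse was left out, but with so few mice the mean of the others cannot shift by a full SD. That result therefore says nothing about dependence on a single mouse. Counts of list members highest or lowest in a mouse stayed within 1.5 times for the 14 counts recomputed with the median or the dimmest probe set, an alternative added after seeing the data. The causes were not tested.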

Other observations

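The arrays of the mice labelled Frzb -/- (animals 6, 14 and 17) enter none of the means and ranks above, and no test. In them Prg2 read 8.50, 5.36 and 7.05 and Epx 6.79, 5.38 and 5.61 on the log2 scale. The median of the 17 skeletal muscle genes there was 12.80, 13.84 and 14.06, beside 14.07, 13.65 and 13.38 in the wild-type mice 6-1, 8-1 and 9-1. The study's text says that an arrayed mouse presumed to be Frzb -/- was found to be heterozygous on genotyping again. That mouse is therefore among these animals, but the labels used here do not say which it is. Frzb itself read 6.93, 7.02 and 6.42 in these arrays, below all the wild-type values. Muscle genes were bright in every array of the study and differed between animals of the same label.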
